A study of Mus musculus with 12 samples.

Results

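The genes described here encode the NADPH oxidase of phagocytes, and the 5 members Cybb, Cyba, Ncf1, Ncf4 and Rac2 were taken by gene name from the 41709 genes counted in every library. RNA-seq was performed on MHCII-positive bone marrow-derived dendritic cells (BMDCs), which were grown from mouse bone marrow with GM-CSF for 10 days. The study asked what the loss of CD18, the shared β-chain of the β2 integrins encoded by Itgb2, does to dendritic cells at rest and after the bacterial product LPS. The 4 groups held 3 libraries each, namely CD18fl/fl BMDCs left untreated, CD18fl/fl BMDCs given 100 ng/mL LPS, CD18-delta-CD11c BMDCs left untreated and CD18-delta-CD11c BMDCs given 100 ng/mL LPS. The labels give 24 h for LPS and the methods of the study say overnight. Both genotypes carried the floxed Itgb2 alleles, and only the CD18-delta-CD11c cells also carried a Cre recombinase driven by the CD11c promoter, so that deletion depends on how long and in which cells of the culture that promoter is active. All libraries came from cultured cells enriched on magnetic beads, and the labels give no age or sex of the mice.

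The phagocyte oxidase moves electrons from cytosolic NADPH across a membrane onto oxygen and so makes superoxide. Its catalytic core, gp91phox (Cybb), sits in the membrane with p22phox (Cyba), which also partners other NOX enzymes. On activation, cytosolic subunits, among them p47phox (Ncf1) and p40phox (Ncf4), and the GTPase Rac dock onto this core. In dendritic cells the enzyme is known for its effect on phagosomal pH and on antigen processing, besides killing of microbes.

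For Itgb2, the gene targeted by Cre, the untreated CD18fl/fl libraries held 382, 420 and 379 normalized counts (CPM, reads of the gene per 1000000 reads of the library, scaled by TMM over the 12 libraries) and the untreated CD18-delta-CD11c libraries 120, 163 and 189. After LPS the values were 167, 171 and 267 in CD18fl/fl and 114, 89.7 and 119 in CD18-delta-CD11c cells. The genotypes did not overlap in either state (as for 13.1% and 8.09% of all genes, lower), but transcript remained. Cre removes exon 3 alone and the counts cover the whole gene, so reads from the other exons check the deletion only in part. The log2 fold change was -1.26 ± 0.23 (SE; adjusted p = 0.0887 in edgeR) in untreated and -0.93 ± 0.29 (0.428) in LPS-treated cells, and a fit blocked on replicate number gave Itgb2 as lower. In that fit it fell by 1.29 ± 0.17 (0.00392) and by 0.91 ± 0.16 (0.0201). Total gene reads ran from 29689149 to 34037178 per library. Of 12 dendritic cell genes, those of MHC class II, by which the cells were isolated, stood high (H2-Ab1 between 4238 and 13259 CPM). Ccr7 lay between 200 and 2823, Cd86 between 155 and 2014 and Itgax between 30.8 and 680 CPM. Batf3 lay between 12.3 and 195, Dpp4 between 6.25 and 132 and Zbtb46 between 19.5 and 37.2 CPM. Flt3 lay between 0.227 and 35.5 and Cd209a between 0 and 119 CPM, the latter with 0 reads in 3 libraries. Summed over 14 neutrophil genes, the libraries held between 100.5 and 856 CPM, with up to 399 CPM for Mmp8, 253 for Lcn2, 202 for Ngp and 106 for Ltf. The precursor genes Mpo and Elane were at 0 reads in 8 and 7 of the 12 libraries, and Ly6g in 5. The 12 macrophage and monocyte genes summed to between 1417 and 3064 CPM. In bulk RNA, fewer cells of a type and less RNA per cell cannot be told apart.

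Upstream sequence is shown for the members that RefSeq start sites in the reference cover, because they include Cyba and Ncf1, which lay on opposite sides of 0 between genotypes, and the catalytic subunit Cybb. Of the 5 members, 3 had an entry (GRCm38.p6). The 250 bases before each start are printed 5′ to 3′ on the gene's own strand, with matches to the motifs named below in capitals. They lie at chrX:9469325-9469574 (minus strand) for Cybb, chr8:122432941-122433190 (minus strand) for Cyba and chr5:134229626-134229875 (minus strand) for Ncf1.
Cybb: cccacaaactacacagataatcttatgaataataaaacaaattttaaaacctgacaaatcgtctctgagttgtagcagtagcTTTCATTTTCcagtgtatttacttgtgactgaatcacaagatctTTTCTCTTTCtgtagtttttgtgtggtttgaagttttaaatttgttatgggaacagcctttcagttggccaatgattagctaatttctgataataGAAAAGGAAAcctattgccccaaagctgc
Cyba: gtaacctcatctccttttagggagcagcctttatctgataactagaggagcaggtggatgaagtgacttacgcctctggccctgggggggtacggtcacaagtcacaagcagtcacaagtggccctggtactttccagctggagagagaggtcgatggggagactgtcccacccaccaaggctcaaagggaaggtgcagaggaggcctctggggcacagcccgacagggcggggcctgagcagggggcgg
Ncf1: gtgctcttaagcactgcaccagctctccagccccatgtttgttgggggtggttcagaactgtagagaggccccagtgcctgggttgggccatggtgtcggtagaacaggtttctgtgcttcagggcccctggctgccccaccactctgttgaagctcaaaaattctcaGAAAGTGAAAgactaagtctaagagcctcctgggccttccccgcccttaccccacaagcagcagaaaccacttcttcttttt
Motifs were searched on both strands over 300 bases, from 250 before the start to 50 after it. The interferon response element core, read as GAAA, any 2 bases and GAAA, was found 3 times upstream of Cybb and once upstream of Ncf1, against 3.44% of 32851 mouse promoters with at least 1 match. After the start, Cybb also held a match to the ETS-IRF composite, read as GGAA, any 2 bases and GAAA (2.72% of promoters), and an overlapping match to the PU.1 core GAGGAA (28.3% of promoters). None of these motifs, nor the AP-1 motif TGACTCA (5.20% of promoters), matched in the Cyba window. The windows also differed in base composition, with 35.3% G and C for Cybb, 60.7% for Cyba and 54.0% for Ncf1, beside a median of 52.7% over all promoters. A match is a description of letters only.

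All 5 members were expressed in each of the 12 libraries, but at very different levels per length. On the scale of CPM per kilobase of exon (RPKM, with the exon length in the files), Cyba had a mean of 3202 over the 12 libraries (range 1292 to 6091). It was the highest member in 12 of 12 libraries and stood at the 99.8th percentile of the genes that passed the filter on low counts. Cybb followed with a mean of 104.5 RPKM (41.5 to 229), Ncf4 with 94.0 (70.4 to 132) and Ncf1 with 89.2 (38.1 to 146). These 3 levels overlapped, and their order changed between libraries. Rac2, the Rac isoform of blood cells, had the lowest mean of 32.2 RPKM (12.8 to 62.7) and was the lowest member in 11 of 12 libraries. Its range still overlapped that of Cybb and of Ncf1.

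**Figure D1:**
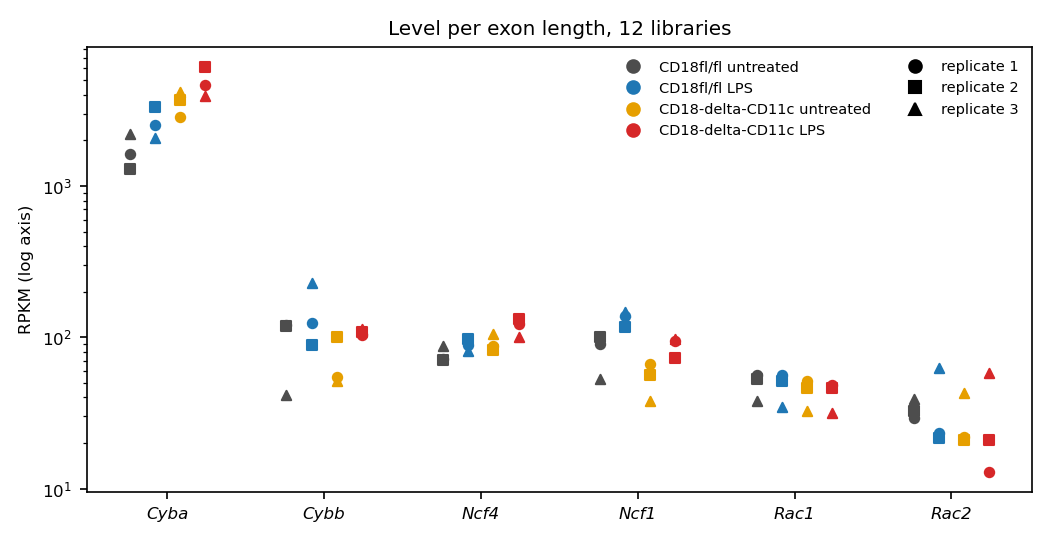
Level per exon length (RPKM, log axis) of the 5 members and of Rac1 in each of the 12 libraries, with colour for the group and symbol for the replicate number. Cyba sits between 1292 and 6091 RPKM, above every other gene shown, and Cybb, Ncf4 and Ncf1 share a range.

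The ratio of the membrane partners was therefore far from 1 in every library. Cyba stood over Cybb per length by 13.5, 10.8 and 52.9 times in the untreated CD18fl/fl libraries and by 20.6, 37.2 and 9.07 times after LPS. In CD18-delta-CD11c cells the ratio was 52.1, 36.6 and 81.9 times without LPS and 44.9, 56.4 and 34.6 times with it. The genotypes overlapped in both states. Of the other NOX enzymes that p22phox could partner, Nox3 and Nox4 had 0 reads in all 12 libraries and Nox1 had 1 to 33 reads. The Duox genes and their maturation factors had at most 1 read. Of 9 such genes only Noxo1, an organizer protein related to p47phox, passed the filter in the comparisons of 2 groups, with at most 1.03 RPKM.

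Each member is a protein-coding gene, given here on GRCm39. Cybb (ENSMUSG00000015340) lies on chrX:9301491-9354010 on the minus strand with 4809 bases of exon, and Cyba (ENSMUSG00000006519) on chr8:123151515-123159669 on the minus strand with 744. Ncf1 (ENSMUSG00000015950) lies on chr5:134248907-134258479 on the minus strand with 3087 bases of exon. Ncf4 (ENSMUSG00000071715) on chr15:78129001-78146780, plus strand, and Rac2 (ENSMUSG00000033220) on chr15:78443367-78456983, minus strand, are 296586 bases apart and have 1464 and 3103 bases of exon. Between 99.0% and 100% of the reads of every member were unique to it. The span of Ncf1 overlaps the gene Gtf2ird2 on the opposite strand by 4303 bases, and since the kit does not mark strand, reads there cannot be told apart. Gtf2ird2 itself had between 1.97 and 7.62 CPM.

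Cybb, the catalytic subunit, varied widely between libraries in 3 of the 4 groups and little in LPS-treated CD18-delta-CD11c cells. The untreated CD18fl/fl libraries held 579, 574 and 200 CPM for replicates 1 to 3, and the LPS-treated ones 594, 429 and 1103 CPM. In CD18-delta-CD11c cells the values were 263, 483 and 246 CPM without LPS and 496, 519 and 545 CPM with it. Replicate 3 was the lowest library before LPS and the highest after it in both genotypes. The treatment groups overlapped in CD18fl/fl cells and did not overlap in CD18-delta-CD11c cells. Beside this, the summed neutrophil genes of the untreated CD18fl/fl libraries were 856, 451 and 169 CPM, and their part in the Cybb values was not tested.

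Cyba, the stabilizing partner, had the largest genotype difference of the members in CPM scaled by TMM, which held neither with library-size scaling and the replicate block nor with an offset for exon length, where that of Ncf1 was larger. The untreated CD18fl/fl libraries held 1209, 961 and 1634 CPM against 2120, 2735 and 3118 CPM in untreated CD18-delta-CD11c cells. After LPS the values were 1892, 2474 and 1548 CPM in CD18fl/fl and 3444, 4532 and 2915 CPM in CD18-delta-CD11c cells. The genotypes did not overlap in either state, and each CD18-delta-CD11c library was higher than its same-numbered CD18fl/fl library, by 1.75 to 2.85 times over 6 of 6 pairs. After LPS, Cyba was higher in replicates 1 and 2 of both genotypes and slightly lower in replicate 3 of both.

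Ncf1, the organizer p47phox that carries the cytosolic complex to the membrane, held 278, 312 and 163 CPM in untreated and 424, 362 and 450 CPM in LPS-treated CD18fl/fl cells. The CD18-delta-CD11c libraries held 207, 173 and 118 CPM without LPS and 293, 224 and 303 CPM with it. Every LPS library was above every untreated library of its genotype. All 6 pairs of same-numbered libraries were higher with LPS, by 1.16 to 2.77 times, and all 6 were lower in CD18-delta-CD11c than in CD18fl/fl cells, at 0.556 to 0.744 of the CD18fl/fl level.

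Ncf4, the p40phox subunit that binds phosphatidylinositol 3-phosphate on phagosomes, was the steadiest member, with a highest library only 1.87 times the lowest. It held 105, 103 and 127 CPM in untreated and 131, 143 and 119 CPM in LPS-treated CD18fl/fl cells. In CD18-delta-CD11c cells it held 128, 121 and 154 CPM without LPS and 180, 193 and 147 CPM with it. In CPM scaled by TMM, each CD18-delta-CD11c library was higher than its same-numbered CD18fl/fl library, by 1.17 to 1.37 times over 6 of 6 pairs. This depended on the scaling in untreated cells. There the log2 fold change between genotypes was -0.060 with library-size scaling and -0.043 with the replicate block and an offset for exon length. How many of all genes had 6 of 6 genotype pairs of the same sign, as Cyba, Ncf1 and Ncf4 did, was not counted. As for Cyba, replicate 3 was the highest untreated and the lowest LPS-treated library in both genotypes.

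Rac2 held 91.4, 102 and 121 CPM in untreated and 72.5, 67.3 and 195 CPM in LPS-treated CD18fl/fl cells. In CD18-delta-CD11c cells it held 67.8, 64.9 and 134 CPM without LPS and 39.8, 64.8 and 180 CPM with it. Replicate 3 was the highest library of each of the 4 groups. The replicate 3 libraries also held the lowest sum of dendritic cell genes in each group (16292 to 23206 CPM), the lowest sum of B and T lymphocyte genes (2.20 to 7.30 CPM) and the highest sum of mast cell and basophil genes (39.1 to 176 CPM), and the part of these in the Rac2 values was not tested. Rac1, the widely expressed Rac isoform, was lowest in replicate 3 of each group, and Rac2 exceeded Rac1 per length only there, at 1.03 to 1.84 times.

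**Figure D2:**
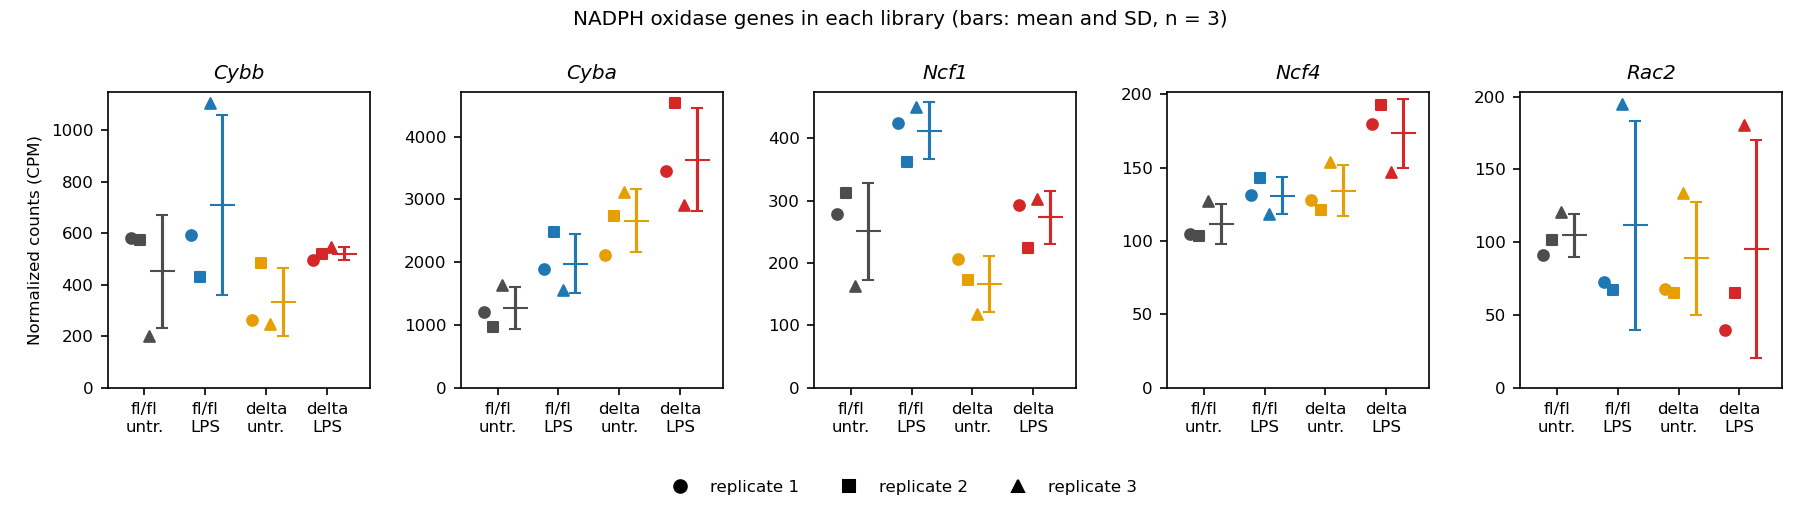
Normalized counts (CPM) of each member in the 12 libraries, by group (fl/fl for CD18fl/fl, delta for CD18-delta-CD11c, untr. for untreated) and replicate number, with bars for the mean and SD of 3 libraries. For Cyba the 2 genotypes do not overlap in either state, and for Rac2 replicate 3 is the highest library in every group.

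To ask what LPS did to the oxidase genes in CD18-sufficient cells, treated and untreated CD18fl/fl libraries were compared with edgeR's quasi-likelihood test over 12744 genes. None of the 5 members passed an adjusted p of 0.05, where 2.06% of all genes tested were called higher and 1.83% lower. The log2 fold changes were 0.66 ± 0.52 (SE; adjusted p = 0.477) for Cybb, 0.64 ± 0.31 (0.263) for Cyba, 0.72 ± 0.31 (0.214) for Ncf1, 0.24 ± 0.22 (0.557) for Ncf4 and 0.10 ± 0.44 (0.916) for Rac2. Their median was 0.64, beside -0.02 over all genes tested. Of the members, 1 had groups that did not overlap (Ncf1, higher), as did 13.6% of all genes in that direction, and none lay wholly lower with LPS, as did 15.9% of all genes. With the replicate number as a block, edgeR again called no member, and 6.33% of genes were called higher and 6.43% lower. Without the 3rd replicate in both groups, where 23.2% of all genes were called higher and 24.3% lower, Cyba was called higher at 1.01 (adjusted p = 0.00201), Rac2 was called lower, having fallen by 0.47 (0.0292), and Cybb stood at -0.17. Scaled by library size alone, which moved the median of all genes to -0.32, Ncf4 stood at -0.093.

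In CD18-delta-CD11c cells the same comparison gave log2 fold changes of 0.60 ± 0.32 (SE; adjusted p = 0.337) for Cybb, 0.39 ± 0.28 (0.468) for Cyba, 0.68 ± 0.29 (0.233) for Ncf1, 0.32 ± 0.23 (0.477) for Ncf4 and 0.08 ± 0.60 (0.958) for Rac2 in edgeR. Again none of the members was called, beside 2.23% of 12687 genes called higher and 1.76% called lower. For 2 members, Cybb and Ncf1, the LPS libraries were above all untreated ones, as were those of 14.8% of all genes, and for none were they below all untreated ones, as for 13.4%. The median of the members was 0.39, beside -0.01 over all genes. Under the block in edgeR, with 10.2% of genes called higher and 9.93% lower, Cybb stood at 0.68 ± 0.25 (adjusted p = 0.108) and Ncf1 at 0.69 ± 0.25 (0.0989). With the block in DESeq2, where 12.4% of genes were called higher, both passed, at 0.68 (adjusted p = 0.0393) and 0.70 (0.0348). Rac2 stood at -0.16 under the edgeR block, and without the 3rd replicate no member was called.

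**Figure D3:**
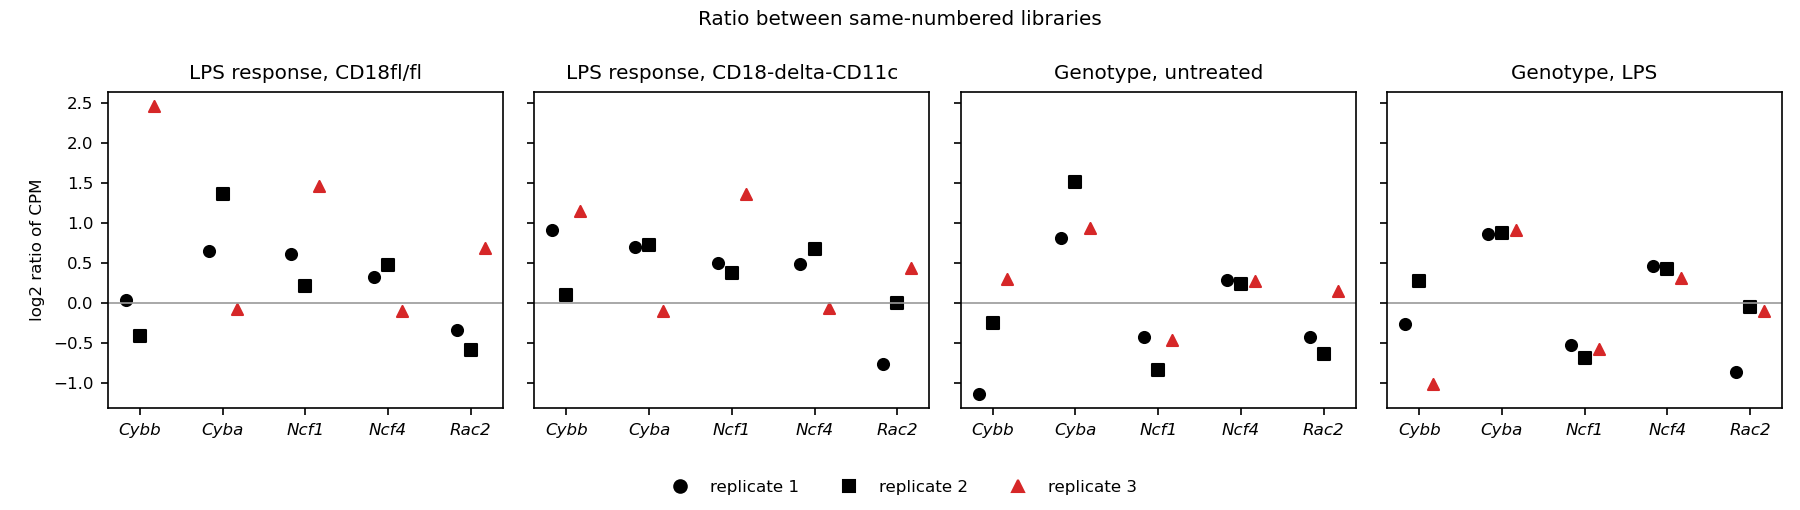
Log2 ratio of CPM between libraries that share a replicate number, for each member in the 4 comparisons, with replicate 3 in red. Ncf1 is above 0 in all LPS pairs and below 0 in all genotype pairs, Cyba and Ncf4 are above 0 in all genotype pairs, and under LPS replicate 3 lies on the other side of 0 from replicates 1 and 2 for Cyba and Ncf4 in both genotypes.

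The response to LPS was not detectably different between the genotypes for any member. The difference of the log2 fold changes (CD18-delta-CD11c minus CD18fl/fl) was 0.00 ± 0.61 for Cybb, -0.19 ± 0.41 for Cyba, 0.00 ± 0.41 for Ncf1, 0.14 ± 0.29 for Ncf4 and 0.01 ± 0.79 for Rac2 (± SE). In edgeR's interaction test over 13752 genes, 0 genes passed, 97 had an unadjusted p under 0.05, and DESeq2 also called 0 without and 129 with the replicate block (0.373% higher and 0.252% lower). The standard errors leave room for differences of the size of the LPS responses themselves.

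To ask what the loss of CD18 did, the genotypes were compared within each state. In untreated cells, Cyba was higher in CD18-delta-CD11c cells by a log2 fold change of 1.13 ± 0.27 (SE), with an adjusted p of 0.137 in edgeR. Ncf1 stood at -0.55 ± 0.33 (adjusted p = 0.444), Cybb at -0.40 ± 0.48 (0.724), Ncf4 at 0.32 ± 0.19 (0.433) and Rac2 at -0.18 ± 0.32 (0.821). No gene among 12876 was called by this fit, while 2159 had an unadjusted p under 0.05, and DESeq2 called 491 higher (5.5%) and 47 lower (0.527%), with Cyba among the former at 1.12. Cyba alone had groups that did not overlap (11.7% of all genes, higher). With the replicate block, 12.1% of all genes were called higher and 8.16% lower, and 2 of the 5 members were among them. Cyba rose by 1.14 ± 0.18 (adjusted p = 0.00751) and Ncf1 fell by 0.52 ± 0.15 on the log2 scale (adjusted p = 0.0418). DESeq2 with the block, which called 15.5% of genes higher and 10.9% lower, called the same 2 members. Without the 3rd replicate in both groups and with no block, edgeR called Cyba at 1.23 (adjusted p = 0.0248), beside 7.91% of genes called higher and 2.67% lower. Of 14 neutrophil genes, 11 were tested between untreated genotypes and all 11 were negative (median -2.24, beside -0.05 over all genes), with Lcn2, Csf3r, Cd177 and Mmp8 called lower with the block. Neutrophils express the oxidase, and their part in the member values was not tested.

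LPS-treated cells gave values of the same sign for every member. Cyba stood at 0.85 ± 0.30 (SE; adjusted p = 0.449 in edgeR), Ncf1 at -0.62 ± 0.25 (0.499), Cybb at -0.48 ± 0.38 (0.740), Ncf4 at 0.38 ± 0.22 (0.644) and Rac2 at -0.25 ± 0.67 (0.933). None of 12441 genes was called, 1212 had an unadjusted p under 0.05, and DESeq2 called 141 higher (1.22%) and 9 lower (0.078%), none of them a member. The groups did not overlap for Cyba and Ncf4 (higher, as for 9.51% of genes) and for Ncf1 (lower, as for 8.09%). With the replicate block, 6.98% of genes were called higher and 3.16% lower, and Cyba rose by 0.86 ± 0.12 (adjusted p = 0.0107) while Ncf1 fell by 0.63 ± 0.13 (0.0294). DESeq2 with the block, at 11.5% higher and 5.65% lower, also called these 2. Of 7 neutrophil genes tested here, 5 were negative (median -0.91, beside -0.11 over all genes), and Csf3r was called lower with the block. The untreated and the LPS-treated comparison have no library in common, but they cannot be taken as independent. Deviations from group means correlated between same-numbered libraries of the 2 states, by 0.265 to 0.524 in CD18fl/fl and by 0.312 to 0.565 in CD18-delta-CD11c cells.

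**Figure D4:**
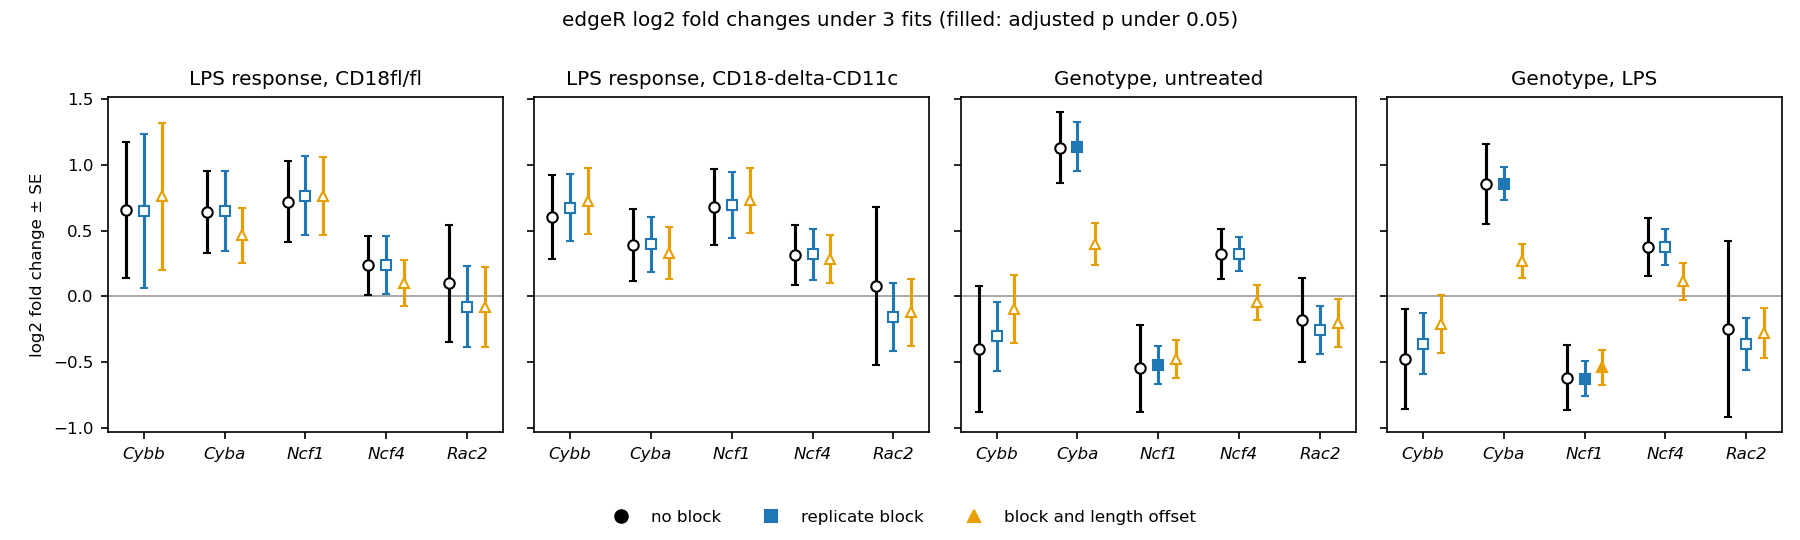
Log2 fold change ± SE of each member in edgeR without a block, with the replicate block, and with the block plus an offset for exon length, where a filled symbol marks an adjusted p under 0.05. Cyba falls from 1.14 to 0.40 in untreated and from 0.86 to 0.27 in LPS-treated cells between the block alone and the block with the offset, whereas Ncf1 changes little.

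Genotype differences moved with gene length over all genes. In untreated cells the median log2 fold change was 0.72 over the 584 genes with up to 1000 bases of exon, 0.38 over 2162 genes of 1000 to 2000 bases, -0.03 over 4812 genes of 2000 to 4000 bases and -0.26 over 5318 longer genes. Cyba, with 744 bases, and Ncf4, with 1464, belong to the short classes that were higher, and Ncf1, Rac2 and Cybb to the longer ones. With a lowess offset for exon length added to the block, Cyba stood at 0.40 ± 0.16 (SE; adjusted p = 0.145 in edgeR) and was no longer called. In LPS-treated cells it stood at 0.27 ± 0.13 (0.247). Ncf1 was at -0.48 ± 0.14 (0.0697) in untreated cells and remained called in LPS-treated cells, where it fell by 0.54 ± 0.13 (0.0472). With the offset, 7.65% of genes were called higher and 3.69% lower in untreated, and 5.43% and 2.95% in LPS-treated cells. Ncf4 went to -0.04 in untreated and to 0.11 in LPS-treated cells. Under LPS the length classes were closer together, with medians between -0.07 and 0.20 in CD18fl/fl and between -0.06 and 0.06 in CD18-delta-CD11c cells.

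**Figure D5:**
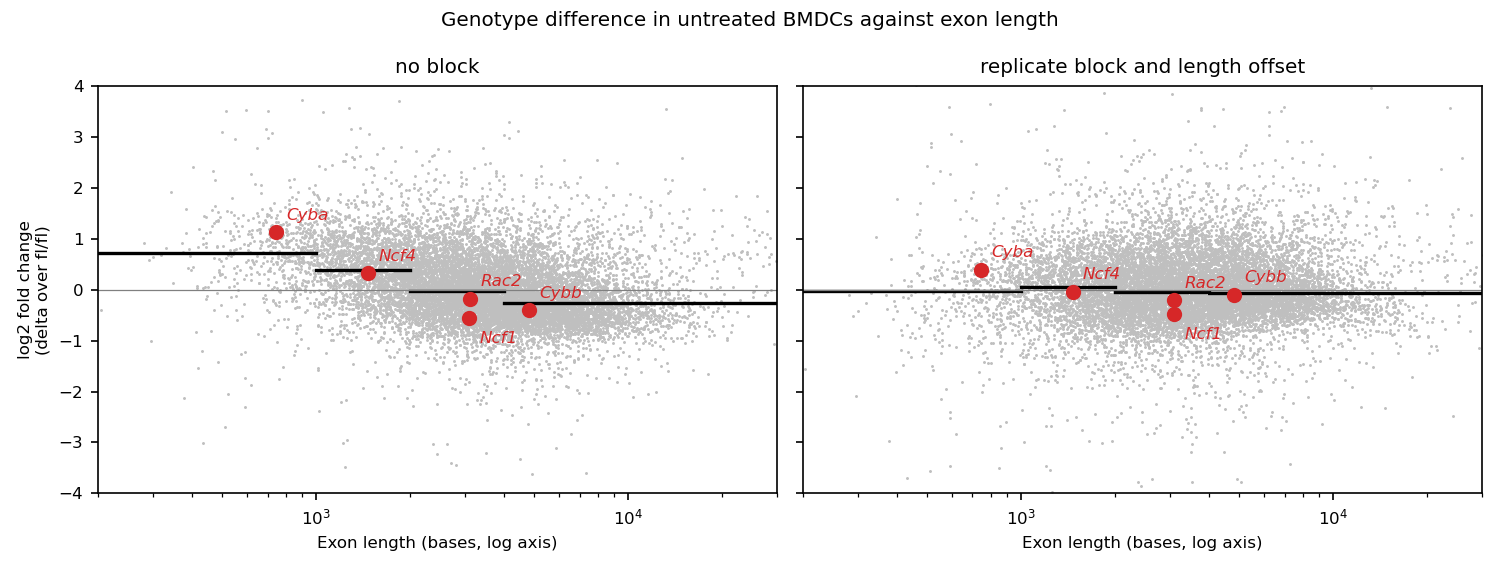
Log2 fold change between untreated CD18-delta-CD11c and CD18fl/fl BMDCs (vertical axis) against exon length (bases, log axis), for every gene tested (grey) and the members (red), with black lines for the median of each length class and genes beyond the axis limits not drawn. Without a block (left) the medians step from 0.72 down to -0.26 and Cyba sits at 1.13, and with the block and the length offset (right) the medians lie near 0 and Cyba at 0.40.

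Among 12 partner genes of the oxidase, edgeR called none with LPS in either genotype, and their median was -0.25 in CD18fl/fl and -0.30 in CD18-delta-CD11c cells, beside -0.02 and -0.01 over all genes. The highest of these genes per length were P4hb (mean 324 RPKM), Arhgdib (315) and Coro1a (286). With the replicate block Coro1a, which encodes the actin-binding protein coronin 1A, fell by 1.35 ± 0.21 (SE; adjusted p = 0.0151 in edgeR) in CD18fl/fl and by 1.53 ± 0.19 (0.00377) in CD18-delta-CD11c cells. S100a9 fell and Cybc1, which encodes a chaperone of gp91phox, rose in CD18-delta-CD11c cells. With the block, 6.33% of all genes were called higher and 6.43% lower in CD18fl/fl cells, and 10.2% and 9.93% in CD18-delta-CD11c cells. Between genotypes, with the block, 2 of 12 rose (Rap1a and P4hb) and 1 fell (Hvcn1, the voltage-gated proton channel) in untreated cells. These counts stand beside 12.1% and 8.16% of all genes. In LPS-treated cells Rap1a alone was called, higher, beside 6.98% of all genes.

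Of the kinases and lipid enzymes that act on the oxidase, 19 were tested in CD18fl/fl and 20 in CD18-delta-CD11c cells. With LPS, edgeR called 0 higher and 2 lower in each, beside 1.83% and 1.76% of all genes called lower. The medians were -0.78 and -0.54, beside -0.02 and -0.01 over all genes. Mapk3 (mean 111 RPKM), Prdx6 (103) and Prkcd (38.2) had the highest levels per length and were not among those called. Both called genes were shared by the genotypes. Pak1, a kinase downstream of Rac, fell by 1.97 ± 0.40 (SE; adjusted p = 0.0465 in edgeR) in CD18fl/fl and by 1.94 ± 0.42 (0.0498) in CD18-delta-CD11c cells. With DESeq2's size factors in edgeR, Pak1 was no longer called in CD18-delta-CD11c cells (adjusted p = 0.0503). Mapk14, which encodes p38α, a kinase that can phosphorylate p47phox, fell by 1.45 ± 0.22 (0.0239) and by 1.34 ± 0.26 (0.0418). With the replicate block 0 rose and 7 fell in CD18fl/fl cells, beside 6.33% and 6.43% of all genes, and 3 rose and 8 fell in CD18-delta-CD11c cells, beside 10.2% and 9.93%. Among 12 Rac exchange factors and GTPase-activating proteins, Arhgap25 fell in both genotypes, by 1.24 ± 0.24 (adjusted p = 0.0422 in edgeR) and by 1.62 ± 0.33 (0.0459). Arhgap15 fell by 2.69 ± 0.35 (0.0182) in CD18-delta-CD11c cells and stood at -2.91 ± 0.62 (0.0505) in CD18fl/fl cells. The medians of this list were -0.70 and -0.47, beside -0.02 and -0.01 over all genes. Its highest levels per length were those of Swap70 (mean 20.7 RPKM), Prex1 (14.8) and Arhgap25 (10.2). Between genotypes, where the fit without the block called no gene at all, the block called Pla2g4a and Arhgap15 higher and Plcg2, Pik3r4, Syk and Vav1 lower in untreated cells. In LPS-treated cells it called Prdx6, Mapk3 and Vav1 lower.

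Genes that remove superoxide and peroxide had medians of 0.72 in CD18fl/fl and 0.47 in CD18-delta-CD11c cells with LPS, beside -0.02 and -0.01 over all genes. In each genotype 2 of 12 were called higher and 0 lower, where 2.06% and 2.23% of all genes were called higher. Prdx5, a peroxiredoxin, rose in both, by 1.82 ± 0.26 (SE; adjusted p = 0.0200 in edgeR) and by 1.61 ± 0.24 (0.0229). Prdx1, the peroxiredoxin with the highest level per length in the list (mean 2473 RPKM), rose by 2.25 ± 0.34 (0.0225) in CD18fl/fl cells and stood at 1.79 ± 0.41 (0.0606) in CD18-delta-CD11c cells. Sod2, the mitochondrial superoxide dismutase, rose by 2.44 ± 0.50 (0.0450) in CD18-delta-CD11c cells and stood at 2.71 ± 0.66 (0.0727) in CD18fl/fl cells. With the block, 3 of 12 rose and 0 fell under LPS in CD18fl/fl cells, beside 6.33% and 6.43% of all genes. In CD18-delta-CD11c cells 5 rose and 2 fell (Gpx1 and Gpx3), beside 10.2% and 9.93%. Gpx1 (mean 1223 RPKM) fell there by 0.69 ± 0.19 (adjusted p = 0.0429 in edgeR). Between untreated genotypes the block called 7 of 12 higher and 0 lower, beside 12.1% and 8.16% of all genes. When the length offset was added, 3 of 12 (Prdx1, Prdx2 and Prdx3) were called higher, beside 7.65%.

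Of 13 transcription factors tied to oxidase genes in phagocytes, 11 were tested, and Irf8 (mean 542 RPKM) and Spi1 (73.8) were the highest per length. With LPS, edgeR called Cebpa, a myeloid factor, in CD18fl/fl cells, where it fell by 2.08 ± 0.32 (SE; adjusted p = 0.0224). Irf8, an interferon regulatory factor that acts on Cybb, held 1408, 1433 and 202 CPM in untreated and 4862, 4014 and 649 CPM in LPS-treated CD18fl/fl cells. It held 1047, 922 and 131 CPM in untreated and 3859, 3111 and 709 CPM in LPS-treated CD18-delta-CD11c cells. Replicate 3 was the lowest library in all 4 groups. Irf8 stood at 1.65 ± 0.91 (adjusted p = 0.315 in edgeR) and 1.80 ± 0.83 (0.266), and with the block it rose by 1.66 ± 0.20 (0.00772) and by 1.97 ± 0.22 (0.00264). Spi1, which encodes PU.1, was among 4 factors called lower with the block in CD18-delta-CD11c cells. Between untreated genotypes 0 rose and 5 fell with the block (Cebpb, Cebpa, Irf8, Runx1 and Rela), beside 12.1% and 8.16% of all genes, and 3 fell when the length offset was added, beside 3.69%.

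The number of genes called under LPS depended on which library was left out. Without the block, edgeR called 496 genes in CD18fl/fl cells, 0 when untreated replicate 1 or 2 or LPS replicate 1 or 2 of that genotype was left out, 506 without untreated replicate 3 and 3268 without LPS replicate 3. In CD18-delta-CD11c cells it called 506, and 0, 4, 26 and 2 without untreated replicate 1, untreated replicate 2, LPS replicate 1 and LPS replicate 2, against 357 without untreated replicate 3 and 1033 without LPS replicate 3.

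The genes most like each member across the 12 libraries, by Pearson correlation of log2 CPM over 13752 genes, were Atp10d (r = 0.922) for Cybb, Glmn (0.976) for Cyba, Nfkbie (0.957), which encodes an inhibitor of NF-κB, for Ncf1, Bnip1 (0.984) for Ncf4 and Prkcd (0.950), which encodes a protein kinase C that can phosphorylate p47phox, for Rac2. The libraries share groups and replicate numbers, so these are descriptions. On each side of a member, the nearest gene was taken among those that passed the filter on 12 libraries. Of these 10 genes, 8 to 10 were tested in each of the 4 comparisons of 2 groups. None of those was called without the block. With the block Gtf2i, 8208 bases from Ncf1, fell with LPS in both genotypes, where 6.43% and 9.93% of all genes were called lower. Between genotypes Dynlt3, 166495 bases from Cybb, rose in CD18-delta-CD11c cells in both states (as did 12.1% and 6.98% of all genes). Csf2rb2, 19926 bases from Ncf4, fell in untreated cells (8.16% of all genes, lower). Gm36738, 1627 bases from Rac2, rose in LPS-treated cells.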

How the data were processed

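Libraries were prepared from poly(A) RNA with a kit that does not mark strand and without molecular identifiers. The authors mapped reads with CLC Genomics Workbench and deposited, for each library, whole-number counts of reads per gene (total gene reads). The study's methods give GRCm39, which the coordinates in the files match, whereas the submitters' processing notes list GRCm38. Promoters are from RefSeq on GRCm38.p6.

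From the deposited counts, CPM were scaled by TMM over the 12 libraries, and RPKM are CPM per kilobase of exon. Each comparison of 2 groups was fitted on its 6 libraries, and the interaction on 12, with edgeR's quasi-likelihood test (edgeR 4.0.16, limma 3.58.1, R 4.3.3), a minimum count of 10 (filterByExpr), Benjamini-Hochberg adjustment over all genes tested and a threshold of 0.05. Alternatives were DESeq2 1.42.0, other scalings and filters, uniquely mapped reads, 1 fit of 12 libraries, left-out libraries, the replicate number as a block, and the block with a lowess offset (span 0.3) for exon length. Library-size scaling with the block was chosen after seeing the data.

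The labels number the replicates 1 to 3 in each group. Deviations from group means correlated by 0.229 to 0.716 between same-numbered libraries and by -0.571 to 0.334 between others. These ranges overlap among replicates 1 and 2. Untreated CD18fl/fl replicate 1 correlated by 0.334 with untreated CD18-delta-CD11c replicate 2 and by 0.229 with LPS-treated CD18-delta-CD11c replicate 1. The numbers were taken to pair the libraries from the same counts that the blocked fits then tested, so the pairing of replicates 1 and 2 remains an assumption. What same-numbered libraries share is not given in the sources used here, nor whether libraries come from separate mice. The p-values therefore measure the spread between libraries, which may be technical. Counts per library were 29689149 to 34037178, and 0 reads allow up to 3.

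The members and gene lists were chosen with earlier results of these data known. Named genes are the members, the called or highest genes of each list and the 3 nearest patterns; Itgb2 checks the labels. Some genes of the lists are not reported here.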

Additional observations from a re-analysis of the deposited data

How the results depend on the processing

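Of 360 alternative values for the 5 members in the 4 comparisons of 2 groups, 317 kept direction and side of the threshold, 19 newly passed it and 24 changed sign. The cause of these changes was not tested. With the replicate block, genes called went from 496 to 1627 (LPS, CD18fl/fl), 506 to 2560 (LPS, CD18-delta-CD11c), 0 to 2606 (genotype, untreated) and 0 to 1262 (genotype, LPS), and with the length offset added to 1732, 2540, 1460 and 1042. DESeq2 gave 1795, 1531, 538 and 150, and with the block 3131, 3377, 3036, 1869 and, for the interaction, 129. One fit of all 12 libraries gave 1068, 983, 19 and 45. Without a filter 805 (LPS, CD18-delta-CD11c) and 1 (genotype, LPS) were called. Library-size scaling moved the median of all genes to -0.32, -0.23, -0.44 and -0.37, and with the block called 1621 (476 higher, 1145 lower), 2748 (884, 1864), 4583 (701, 3882) and 2642 (590, 2052) genes, against 807 and 820, 1300 and 1260, 1555 and 1051, and 869 and 393 higher and lower with TMM and the block.

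Members called were 2 in LPS-treated CD18-delta-CD11c cells with DESeq2 and the block (Cybb 0.68, Ncf1 0.70). Between untreated genotypes they were 2 with the block (Cyba 1.14, Ncf1 -0.52), 1 with DESeq2 (Cyba 1.12), 2 with DESeq2 and the block (1.14, -0.52) and 3 with library size and the block (Cyba 0.75, Ncf1 -0.92, Rac2 -0.65). Between LPS-treated genotypes they were 2 with the block (Cyba 0.86, Ncf1 -0.63), 1 with the offset (Ncf1 -0.54), 2 with DESeq2 and the block (0.89, -0.59) and 2 with library size and the block (0.61, -0.88).

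Signs changed for Rac2 under LPS, to -0.079 (block), -0.080 (offset), -0.051 (DESeq2 with block), -0.14 (library size) and -0.41 (library size with block) in CD18fl/fl and to -0.16, -0.12, -0.15, -0.11 and -0.37 in CD18-delta-CD11c cells. Ncf4 went to -0.093 and -0.086 under LPS in CD18fl/fl cells with library size, without and with the block, and between untreated genotypes to -0.043 (offset), -0.060 and -0.071 (library size, without and with the block). The interaction, near 0, changed sign for Cybb to -0.022 (block), -0.074 (offset), -0.059 (DESeq2), -0.078 (DESeq2 with block), -0.059 (DESeq2's size factors in edgeR), -0.0054 (no filter), -0.049 (minimum count 50) and -0.0043 (unique reads), for Ncf1 to values between -0.0018 and -0.054 (-0.054, -0.052, -0.054, -0.039, -0.0018 and -0.0020) and for Rac2 to -0.037, -0.00036, -0.037 and -0.029.

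Leaving out libraries, without the block, gave 0 to 6140, 0 to 2049, 0 to 1383, 0 to 523 and 0 to 0 genes in the order above with the interaction last, the highest of the first 4 each time without replicate 3 of every group. Members called were 0 to 2 (LPS, CD18fl/fl) and 0 to 1 (genotype, untreated). Under LPS in CD18fl/fl cells Cybb ranged from -0.17 to 0.92, Cyba from 0.45 to 1.01 and Rac2 from -0.58 to 0.36, and in CD18-delta-CD11c cells Rac2 ranged from -0.86 to 0.51. Cyba ranged from 0.97 to 1.33 between untreated genotypes, and Rac2 from -1.15 to 0.43 between LPS-treated ones. The interaction ranged from -0.32 to 0.56 for Cybb, -0.51 to 0.0094 for Cyba, -0.28 to 0.19 for Ncf1, -0.060 to 0.25 for Ncf4 and -0.86 to 0.60 for Rac2.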
